A study of Danio rerio with 4 samples.

Results

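Genes of pre-mRNA splicing factors, mRNA 3′ end factors and RNA helicases were followed in hearts, with the tissue around them, from wild-type zebrafish embryos at 48 hours post fertilization. They were taken by symbol, from the families snrp, snrnp, lsm, sf1, sf3, u2af, prpf, srsf, tra2, hnrnp, ptbp, rbm, magoh, cpsf, cstf, ddx and dhx. The array carried 207 probe sets for 158 such genes, of 15502 probe sets and 8793 named genes in all, and each gene is given by its brightest probe set. One group of embryos received 10 μM SU5402, an inhibitor of fibroblast growth factor (FGF) receptor kinases, diluted from a stock in DMSO, and control wild-type embryos received 1% DMSO. Each group had 2 replicates, each hybridised to 1 Affymetrix Zebrafish array, and both groups shared stage, medium, vials of up to 20 embryos in 3 mL and extraction by syringe. The start of treatment and the number of hearts per array are not given in the labels. Nor is it stated whether replicates came from separate clutches, so a p-value here rests on array to array spread that may be technical alone. Each difference is the SU5402 mean less the DMSO mean of log2(intensity + 16), a scale that shrinks the change of a dim gene.

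Splicing removes introns through the spliceosome, a machine of small nuclear ribonucleoprotein particles (snRNPs). Rings of Sm and LSm proteins carry its RNAs, and SF3 and U2AF proteins mark the branch point and the 3′ splice site. Prp proteins and some of the DEAH-box ATPases drive the rearrangements of the spliceosome. SR proteins mostly promote and hnRNP proteins often repress the use of exons. DEAD-box proteins unwind RNA in splicing, mRNA export and translation, and many of them work in the nucleolus, where ribosomes are assembled.

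Most of these genes were lower in SU5402 than in DMSO hearts, by small amounts. The difference was negative for 128 of 158 (81%), against 56.2% of all named genes, with a median of -0.38 against -0.08. Both SU5402 arrays lay below both DMSO arrays for 82 of the 158 (51.9%), where 26.3% of all genes did, and above them for 8, where 19.3% of all genes did. By contrast, 15 of 158 (9.49%) were lower at an unadjusted p under 0.05 in limma, close to the 8.04% of all genes, and 1 was higher, where 5.31% of all genes were. After Benjamini-Hochberg adjustment 0% of probe sets passed at 0.05 (0 of 15502, with 2008 at an unadjusted p under 0.05), and the lowest adjusted p among the members was 0.255. An exact permutation of 2 against 2 arrays cannot give a p below 0.333.

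The background of the array was taken from its 17 Tag control probe sets, which match no zebrafish RNA and had a 95th percentile of 136 in intensity. Of the 158 genes, 124 lay above it on all 4 arrays and 13 on none. Among the 141 genes above it on average, 120 were lower, the median was -0.40 and 77 (54.6%) had both SU5402 arrays below both DMSO arrays, where 29.4% of the 5848 genes of the same kind did. At an unadjusted p under 0.05, 13 of the 141 (9.22%) were lower, against 9.15% of the 5848. So negative differences made up a larger share of the list than of all genes, while the shares at a low p were close in this fit. That second statement depended on the setting. The lower share at that p was 15.8% of the list against 10.3% of all genes with the replicate number as a block, and 19.6% against 9.45% with a pseudocount of 64 in place of 16.

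**Figure D1:**
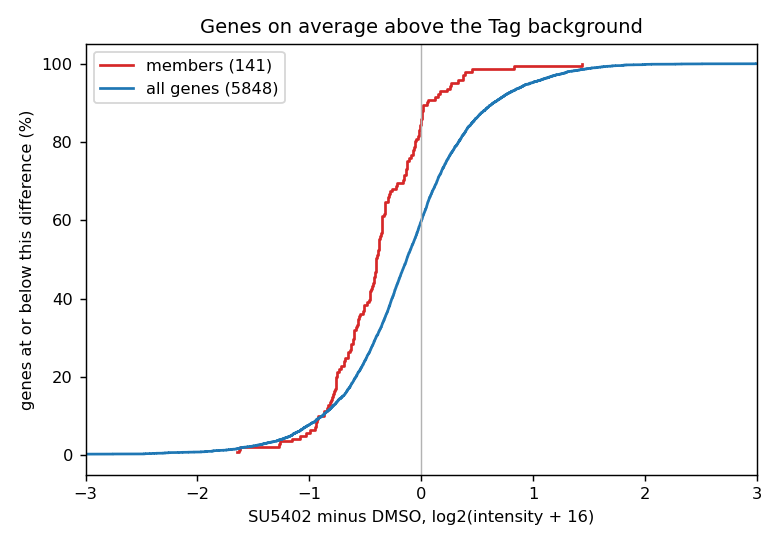
Share of genes (%) at or below each difference, log2(intensity + 16) in SU5402 less that in DMSO, for the 141 splicing and helicase genes and all 5848 genes that lie on average above the Tag background. The members' curve is shifted to lower values through its middle (median -0.40 against -0.13). With both SU5402 arrays below both DMSO arrays, 8 of the 141 and 407 of the 5848 were at or below -1.

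The size of the shift depended on the array. Relative to each gene's mean over the 4 arrays, SU5402 replicates 1 and 2 had member medians of 0.006 and -0.38, against 0.22 and 0.12 for DMSO replicates 1 and 2. SU5402 replicate 2 was thus the low array for most members, with 137 of 158 below their own mean. Over all genes that array was also the lowest, by less. The medians of all genes were 0.03 and -0.09 in SU5402 replicates 1 and 2, against 0.07 and 0.02 in DMSO replicates 1 and 2. Without SU5402 replicate 2 the members' median was -0.19 with 104 lower (65.8%), against -0.02 and 51.1% for all genes. Without SU5402 replicate 1 it was -0.56 with 132 lower (83.5%), against -0.11 and 56.9% for all genes. At an unadjusted p under 0.05, 41 members (25.9%) were lower without SU5402 replicate 1, against 11% of all genes, and 8 (5.06%) without SU5402 replicate 2, against 11.1%. The members' share was thus above that of all genes in 1 case and below it in the other. Without DMSO replicate 1 it was 4 (2.53%, against 3.14% of all genes) and without DMSO replicate 2 it was 7 (4.43%, against 3.88%). In each of the 4 cases 1 group was a single array, assumed to vary like the other pair. The genes named by rule were chosen by their p on these same arrays, so leaving out 1 array is a weak check of them. Among them ddx54 lay below the Tag background on all 4 arrays and so has no measured level. With values raised to that background its difference was 0. Among the genes named by rule, ptbp1b, rbm25a, ddx27 and ddx54 kept an unadjusted p under 0.05 whichever array was left out. The genes prpf19 and ddx18 lost it without DMSO replicate 1, rbm28 without DMSO replicate 1 or SU5402 replicate 2, and prpf39 whichever array was left out. The genes lsm8, sf3b4 and magoh kept it in 1 of these 4 cases, without SU5402 replicate 1.

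Other measures moved with the treatment. Of 13 measured DNA replication genes (14 listed), which mark dividing cells, 12 were lower (median -1.13), and their summed intensity was 10320 and 8326 in SU5402 against 26750 and 22374 in DMSO arrays. All 6 measured heart muscle genes of 8 listed, such as myl7 and tnnt2a, were higher, with a summed intensity of 43926 and 35583 in SU5402 against 18532 and 7848 in DMSO arrays. All 7 measured neuron genes of 8 listed were also higher (14377 to 24440 against 7971 to 9239), and all 6 fin fold and mesenchyme genes were lower (614 to 4990 against 28700 to 48178). Of the 6 skeletal muscle genes 5 were lower (median -1.16), with myog and myod1 at -1.60 and -1.58. The myog probe set lay below the Tag background on both SU5402 arrays, and that of myod1 on all 4 arrays. The sum of the 6, mostly ckma, overlapped (3080 to 3253 against 1859 to 4230). The 4 red blood cell genes of 6 listed summed to 12888 to 14217 against 11381 to 13804, and the 2 lens genes of 4 listed to 16742 to 19140 against 13307 to 17057. None of these markers was at 0, but myod1, pvalb1, mcm6 and gins1 lay below the Tag background on all 4 arrays and so have no measured level. The 3′ to 5′ signal ratio of the gapdh control probe sets, a sign of RNA integrity, was 26.6 and 29.7 in SU5402 and 20.3 and 21.7 in DMSO arrays, while its 3′ to middle ratio overlapped (3.64 to 3.93 against 3.71 to 3.90). The part of any of these in the members' values was not tested, and in bulk tissue fewer cells of a type cannot be told apart from less RNA per cell.

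**Figure D2:**
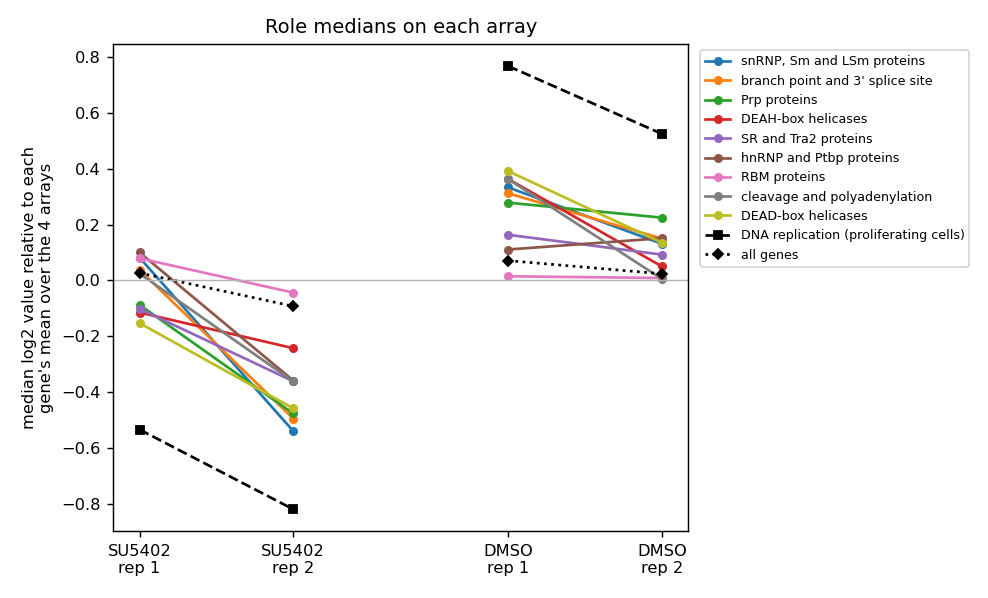
Median log2 value of each role group on each array, relative to each gene's mean over the 4 arrays (log2 units), with the DNA replication list (dashed) and all genes (dotted). Most role medians are lowest in SU5402 replicate 2 and near 0 in SU5402 replicate 1, the RBM genes stay within 0.08 of 0 on every array, and the DNA replication median is below 0 on both SU5402 arrays.

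Of 27 genes with snrp, snrnp or lsm symbols, not all of them for proteins of the snRNPs, 25 were lower (median -0.46). Both SU5402 arrays lay below both DMSO arrays for 14 of them (51.9%, against 26.3% of all genes). At an unadjusted p under 0.05, 1 of them, lsm8, was lower (3.7%, against 8.04% of all genes). The gene lsm8, a subunit of the LSm ring on U6 RNA, had an intensity of 276 and 163 in SU5402 against 430 and 416 in DMSO arrays, a difference of -0.94 (SE 0.36, unadjusted p = 0.0411). Its ring partner lsm4 had 1180 and 713 in SU5402 against 1663 and 1664 in DMSO arrays (-0.85, SE 0.36). The Sm ring gene snrpb had 1170 and 991 in SU5402 against 2102 and 1578 in DMSO arrays (-0.75, SE 0.33). The groups did not overlap for any of the 3, and SU5402 replicate 2 was the lowest array each time.

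The 14 measured genes of the Sm and LSm rings, those of the U7 particle (lsm11) and the cytoplasmic ring (lsm1) included, were grouped after their values were seen. They ranged from -1.03 for snrpd1 to 0.46 for snrpd2, with a median of -0.76 and 13 lower. Relative to each gene's mean, their median was 0.13 in SU5402 replicate 1 and -0.89 in replicate 2, against 0.56 and 0.16 in the DMSO arrays. The ring gene snrpe had 849 and 250 in SU5402 against 1081 and 688 in DMSO arrays, and lsm6 had 2698 and 743 in SU5402 against 2248 and 1618 in DMSO arrays. In SU5402 replicate 1 both lay within or above the DMSO range, and in replicate 2 both were far below it. Without SU5402 replicate 2 the ring median was -0.19 and that of all 27 genes -0.16, without SU5402 replicate 1 they were -1.30 and -0.83, and lsm8 was at -0.59 without SU5402 replicate 2. The snrpd2 probe set lay below the Tag background on all 4 arrays.

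Genes for recognition of the branch point and the 3′ splice site were lower in 12 of 12 cases, with a median of -0.46 (-0.17 without SU5402 replicate 2, with 7 lower). The SF3B subunit gene sf3b4 had 829 and 489 in SU5402 against 1307 and 1194 in DMSO arrays (-0.95, SE 0.37, unadjusted p = 0.0418), and -0.58 without SU5402 replicate 2. A second probe set of sf3b4, below the Tag background on all 4 arrays, was at 0.35. The SF3A subunit gene sf3a1 had 468 and 537 in SU5402 against 772 and 864 in DMSO arrays (-0.69, SE 0.30), and sf3b3 was at -0.65 (SE 0.32). The smallest differences were those of sf1, the branch point binding protein gene, at -0.07 and of sf3b1, the gene of the largest SF3B subunit, at -0.07. Neither had groups that were apart by the probe set used. A second probe set of sf3b1, above the Tag background, was at 0.29 (SE 0.30) with both SU5402 arrays above both DMSO arrays. Second probe sets of u2af2b and sf3a2, also above background, were at -0.56 and -0.05. With the probe sets of each gene averaged, 11 of the 12 genes were lower (median -0.44).

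All 11 Prp genes were lower (median -0.56), 9 with groups that did not overlap (81.8%, against 26.3% of all genes lower without overlap). At an unadjusted p under 0.05, 2 were lower (18.2%, against 8.04% of all genes). The largest difference was that of prpf19, which encodes the ubiquitin ligase at the core of the complex named after it. It had 2334 and 1701 in SU5402 against 5346 and 4353 in DMSO arrays, 2.41-fold lower (-1.27, SE 0.33, unadjusted p = 0.00942). Both SU5402 arrays were well below both DMSO arrays, and with 1 array left out the value stayed between -1.50 and -1.04, though without DMSO replicate 1 its p in limma was 0.0735. The gene prpf39, whose yeast counterpart belongs to the U1 particle, had 580 and 556 in SU5402 against 1001 and 954 in DMSO arrays (-0.77, SE 0.30), with almost equal replicates. Its unadjusted p was 0.0423, and 0.0622 to 0.195 with any 1 array left out. The gene prpf31 of the tri-snRNP was at -0.74 (SE 0.32), and prpf8, the central scaffold of the catalytic core, at -0.57 (SE 0.30) with 2489 and 2389 in SU5402 against 3456 and 3799 in DMSO arrays. Without SU5402 replicate 2 the group median was -0.37 with 9 lower.

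The 7 DEAH-box genes, taken by the symbol dhx and not all of them for spliceosome proteins, had a median of -0.38, with 5 lower. At an unadjusted p under 0.05 there were 0, where 8.04% of all genes were lower. The gene with the lowest p, dhx32a, had 170 and 131 in SU5402 against 265 and 200 in DMSO arrays (-0.58, SE 0.33). The genes dhx57 and dhx16 were at -0.42 and -0.40, and dhx15, which releases spent spliceosomes, at -0.38 with groups that overlapped. Without DMSO replicate 1 the median was -0.14.

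**Figure D3:**
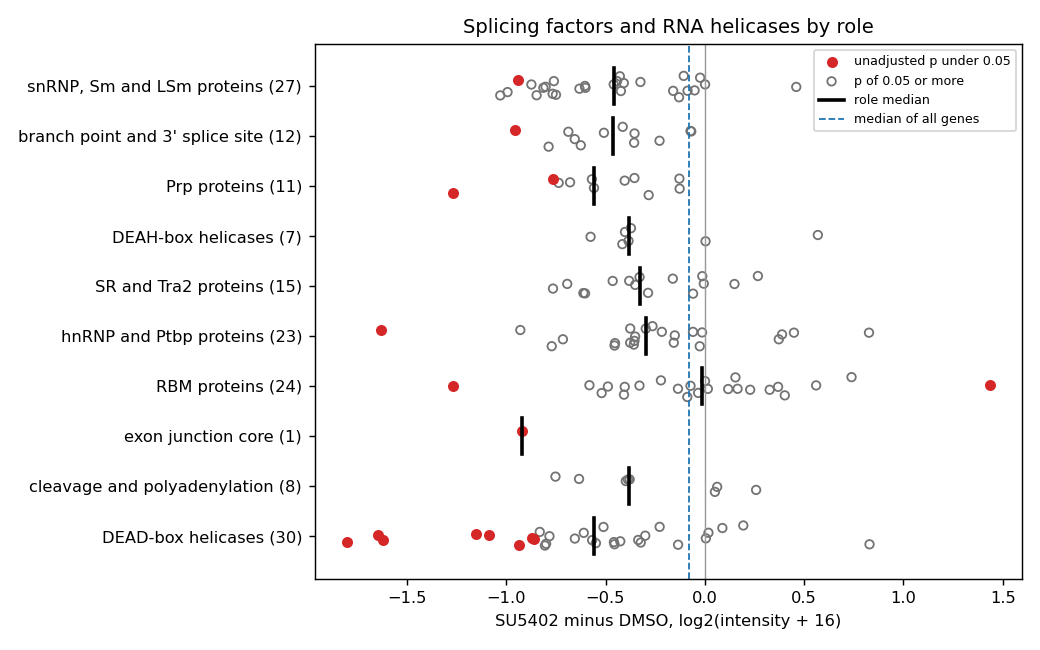
Difference between SU5402 and DMSO arrays (log2(intensity + 16) scale) for each of the 158 genes, 1 point per gene, by role with the number of genes in brackets. Filled points have an unadjusted p under 0.05, black bars are role medians and the dashed line is the median of all genes (-0.08). The DEAD-box and Prp medians are near -0.56, the RBM median is at -0.02, and 15 of the 16 filled points lie below 0.

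Among regulators of exon choice, 13 of 15 SR and Tra2 genes were lower (median -0.33). For 8 the groups were apart (53.3%, against 26.3% of all genes lower without overlap). Of the 15, 0 had an unadjusted p under 0.05, where 8.04% of all genes were lower at that p. The gene srsf10b had 804 and 602 in SU5402 against 1202 and 1186 in DMSO arrays (-0.76, SE 0.32). The founding SR protein gene srsf1a had 2423 and 1933 in SU5402 against 3633 and 3387 in DMSO arrays (-0.69, SE 0.31), and srsf2a was at -0.60 (SE 0.30). The values of srsf5a and srsf5b were -0.01 and 0.15, so the family was not lower throughout. Without SU5402 replicate 2 the median was -0.21 with 10 lower.

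Of 23 hnRNP and Ptbp genes 19 were lower (median -0.30). At an unadjusted p under 0.05, 1 was lower (4.35%, against 8.04% of all genes). This was ptbp1b, which encodes a polypyrimidine tract binding protein that represses neuronal exons. It had 1127 and 646 in SU5402 against 2813 and 2540 in DMSO arrays, 3.09-fold lower (-1.63, SE 0.38, unadjusted p = 0.0052), and between -2.02 and -1.23 with any 1 array left out. Its copy ptbp1a varied within groups, at 635 and 2344 in SU5402 against 1053 and 1922 in DMSO arrays, a difference of -0.22 (SE 0.67). The other probe sets of ptbp1a, both above background and less variable within groups, were at -0.91 (SE 0.33) and -1.02 (SE 0.36), each with groups apart and an unadjusted p under 0.05. The neuronal relative ptbp2b was at 0.37 (SE 0.45), with 1065 and 489 in SU5402 against 625 and 493 in DMSO arrays, so the groups overlapped. The exon repressor gene hnrnpa1b had 5601 and 3967 in SU5402 against 7828 and 7662 in DMSO arrays (-0.71, SE 0.33). The gene hnrnpabb was at -0.93 (SE 0.44) and at -0.36 without SU5402 replicate 2, and the group median without that array was -0.07 with 14 lower. With the probe sets of each gene averaged, the group median was -0.16 with 18 lower. On the other side, hnrnpua had 2010 and 1030 in SU5402 against 856 and 757 in DMSO arrays (0.83, SE 0.41), the largest positive value of the group.

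The 24 RBM genes showed no common direction, with 12 lower and 12 higher and a median of -0.02 (0.13 without SU5402 replicate 2). This family is joined by its RNA-binding domain and its name rather than by 1 task. The gene rbm25a, which encodes a regulator of alternative splicing, had 804 and 825 in SU5402 against 259 and 326 in DMSO arrays, 2.71-fold higher (1.44, SE 0.31, unadjusted p = 0.0037). It was the 1 member higher at an unadjusted p under 0.05, with close replicates in both groups and values of 1.28 to 1.59 with any 1 array left out. The gene rbm28, whose yeast counterpart works in assembly of the large ribosomal subunit, had 230 and 157 in SU5402 against 654 and 353 in DMSO arrays (-1.27, SE 0.41, unadjusted p = 0.023), and -0.84 without DMSO replicate 1. The gene rbm46, known from germ cells in mouse, was at 0.74 (SE 0.32) but below the Tag background on all 4 arrays, and so has no measured level. The gene rbm47 overlapped between groups (-0.33, SE 0.42).

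The core of the exon junction complex, which marks spliced mRNA, was measured through magoh and rbm8a, whose proteins form a pair. The gene magoh had 164 and 99.4 in SU5402 against 239 and 276 in DMSO arrays (-0.92, SE 0.35, unadjusted p = 0.0412), and -0.60 without SU5402 replicate 2. Its partner rbm8a had 2244 and 1469 in SU5402 against 2391 and 2422 in DMSO arrays (-0.40, SE 0.34). Both were lower without overlap, and SU5402 replicate 1 of rbm8a was close to the DMSO arrays.

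Of 8 genes of cleavage and polyadenylation, which form the mRNA 3′ end, 5 were lower (median -0.38). At an unadjusted p under 0.05 there were 0, where 8.04% of all genes were lower. The gene cpsf1, the largest subunit of the factor that binds the polyadenylation signal, had 327 and 236 in SU5402 against 482 and 476 in DMSO arrays (-0.75, SE 0.32). The gene cstf2, which binds downstream of the cleavage site, was at -0.63 (SE 0.35) and cpsf2 at -0.39 (SE 0.32). Without SU5402 replicate 2 the median was -0.09 and without DMSO replicate 1 it was -0.11. With the probe sets of each gene averaged, the median was -0.17 and 4 of the 8 were lower.

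The DEAD-box helicases, taken by the symbol ddx alone, held 8 of the 15 genes that were lower at an unadjusted p under 0.05. These were 26.7% of the 30 ddx genes, against 8.04% of all genes, and they include ddx54, below the Tag background on all 4 arrays. With a pseudocount of 1 there were 5 of the 30, against 6.64% of all genes. With a pseudocount of 64 there were 11 of the 30, against 9.45%. Of the 30, 25 were lower (median -0.56) and 22 (73.3%) had both SU5402 arrays below both DMSO arrays, where 26.3% of all genes did. The median of the 30 was -0.44 without SU5402 replicate 2 and -0.49 without DMSO replicate 1. It was -0.72 without DMSO replicate 2 and -0.80 without SU5402 replicate 1. Without the DEAD-box genes, the other 128 members had 7 lower at that p (5.47%, against 8.04% of all genes). The gene ddx27 had 242 and 172 in SU5402 against 755 and 577 in DMSO arrays, 3.07-fold lower (-1.62, SE 0.34, unadjusted p = 0.00338). The gene ddx18 had 504 and 310 in SU5402 against 1652 and 978 in DMSO arrays, 3.13-fold lower (-1.65, SE 0.42, unadjusted p = 0.00779). Both encode nucleolar helicases whose yeast counterparts act in assembly of the large ribosomal subunit, and for both the higher SU5402 array was below the lower DMSO array. With 1 array left out, ddx27 ran from -1.85 to -1.39 and ddx18 from -2.02 to -1.27, where its limma p was 0.0567 without DMSO replicate 1. A second probe set of ddx18, below the Tag background on all 4 arrays, was at -0.37.

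The gene with the most negative value, ddx54, had 12.6 and 11.2 in SU5402 against 74.0 and 89.0 in DMSO arrays (-1.80, SE 0.30). All 4 values lay below the Tag background, so no fold is given for it.

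Of the 30, 11 were grouped by yeast or human counterparts known for ribosome assembly. They are ddx18, ddx21, ddx27, ddx31, ddx47, ddx49, ddx51, ddx52, ddx54, ddx55 and ddx56. The grouping was made after their values were seen and is given without a test. It is not exhaustive, so the other 19 can include genes with such a role. All 11 were lower, with a median of -0.94. Of them 10 (90.9%) were lower without overlap, against 26.3% of all genes. In limma 7 (63.6%) had an unadjusted p under 0.05, against 8.04% of all genes lower at that p. These counts include ddx54. With values raised to the Tag background 10 were lower and 5 were at that p, against 6.96% of all genes. The other 19 had a median of -0.34, with 14 lower and 1, ddx19a, at an unadjusted p under 0.05 (5.26%). In the 11, the median relative to each gene's mean was -0.41 and -0.62 in SU5402 replicates 1 and 2, against 0.68 and 0.19 in the DMSO arrays, so here both SU5402 arrays were low. Their median was -0.82 without SU5402 replicate 2 and -0.62 without DMSO replicate 1. It was -1.17 without DMSO replicate 2 and -1.06 without SU5402 replicate 1. In each case 11 of 11 were lower, but fewer of them were at that p.

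Of the remaining ribosome assembly helicases, ddx52 had 182 and 144 in SU5402 against 329 and 437 in DMSO arrays (-1.15, SE 0.33). The name of its probe set marks probes that can match several genes. The gene ddx56 had 216 and 224 in SU5402 against 496 and 347 in DMSO arrays (-0.87, SE 0.33). The gene ddx21, whose human counterpart acts in rRNA processing, had 1163 and 1150 in SU5402 against 2629 and 1629 in DMSO arrays (-0.83, SE 0.36). In each case both SU5402 arrays were below both DMSO arrays, and those of ddx56 and ddx21 nearly coincided. The genes ddx55 and ddx51 were below the Tag background on both SU5402 arrays and above it on both DMSO arrays, which makes them at least 1.52-fold and at least 1.62-fold lower, with adjusted limma p-values of 0.305 and 0.379. Their intensities were 118 and 72.0 in SU5402 against 229 and 201 in DMSO arrays for ddx55, and 125 and 102 in SU5402 against 303 and 175 in DMSO arrays for ddx51. On the same basis ddx19a, whose family works in mRNA export, was at least 1.1-fold lower, with 95.7 and 59.4 in SU5402 against 159 and 143 in DMSO arrays. Its adjusted p in limma was 0.377.

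Among helicases with other tasks, the mRNA export helicase genes ddx39aa and ddx39ab had nearly the same difference, -0.81 and -0.80 (SE 0.38 and 0.34), with 5058 and 2839 in SU5402 against 6870 and 6407 in DMSO arrays for ddx39aa. The gene ddx20, which encodes a member of the SMN complex that loads Sm rings, was at -0.51 (SE 0.33). Helicase genes of splicing differed among themselves. The genes ddx46, ddx42 and ddx23 were at 0.01, 0.02 and 0.09, with groups that overlapped. By contrast, ddx5 and ddx39b were at -0.61 and -0.34 (SE 0.34 and 0.30), lower without overlap, as 26.3% of all genes were. The germ cell gene ddx4, ddx6, ddx23 and ddx1 lay below the Tag background on all 4 arrays. The positive value of ddx1, 0.83, therefore stands for no measured level.

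**Figure D4:**
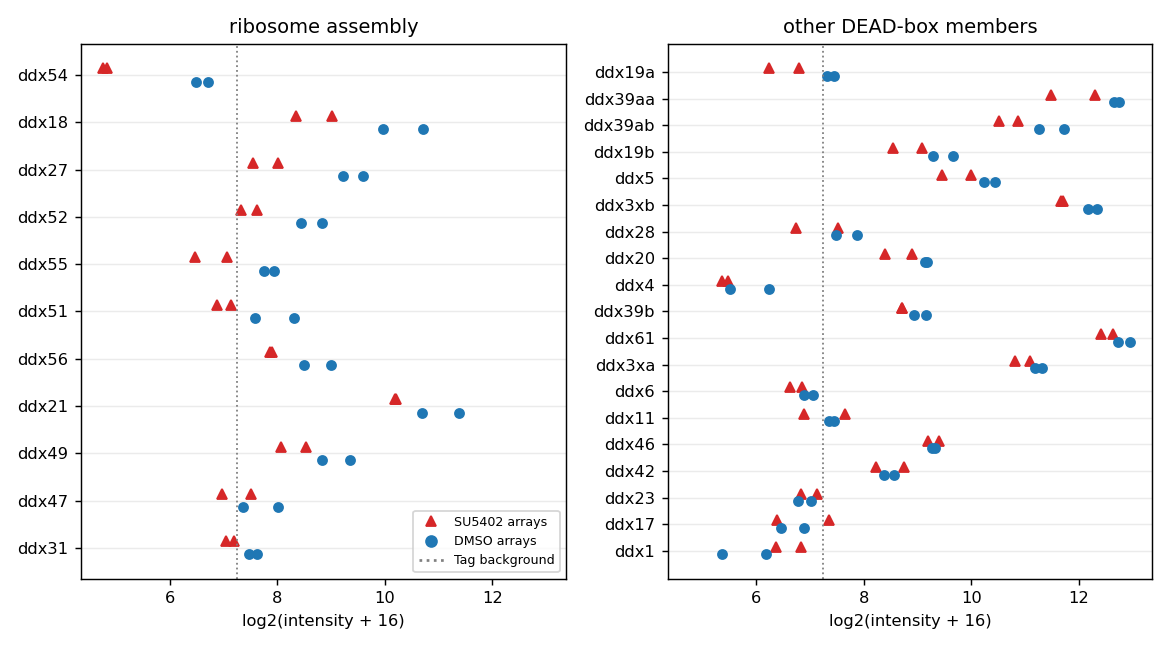
Level of each DEAD-box gene on each array, log2(intensity + 16), with triangles for the 2 SU5402 and circles for the 2 DMSO arrays, and a dotted line at the Tag background. The 11 genes grouped by counterparts in ribosome assembly, a list that is not exhaustive, are on the left, with groups apart for 10. The other 19 are on the right, where the groups overlap for 6. Of all genes, 26.3% had both SU5402 arrays below both DMSO arrays.

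Zebrafish keep duplicate copies of many of these genes, and 16 pairs were measured on both sides. Both copies were lower in 11 pairs and the signs were opposite in 5. Among the latter, lsm12a, rbm39a and srsf5a were at 0.001, 0.001 and -0.005 (SE 0.31, 0.33 and 0.31), so their signs are not settled. In 6 pairs the copies differed by 0.5 or more on the log2 scale, with rbm25a at 1.44 against rbm25b at -0.22 (SE 0.31 and 0.48). Of the 4 rbm25b values, 1 lay above the Tag background, 155 in SU5402 replicate 2, so its difference and the gap to rbm25a are not well measured. The genes ptbp1a and ptbp1b were at -0.22 and -1.63, but the 2 steadier probe sets of ptbp1a (-0.91 and -1.02) lay closer to ptbp1b. The genes hnrnpua and hnrnpub, both above background, were at 0.83 and -0.45 (SE 0.41 and 0.38). The SR protein pairs srsf1a and srsf1b (-0.69 and -0.01) and srsf2a and srsf2b (-0.60 and -0.06) differed less. The differences within pairs were not tested, and probe sets can share sequence between copies.

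**Figure D5:**
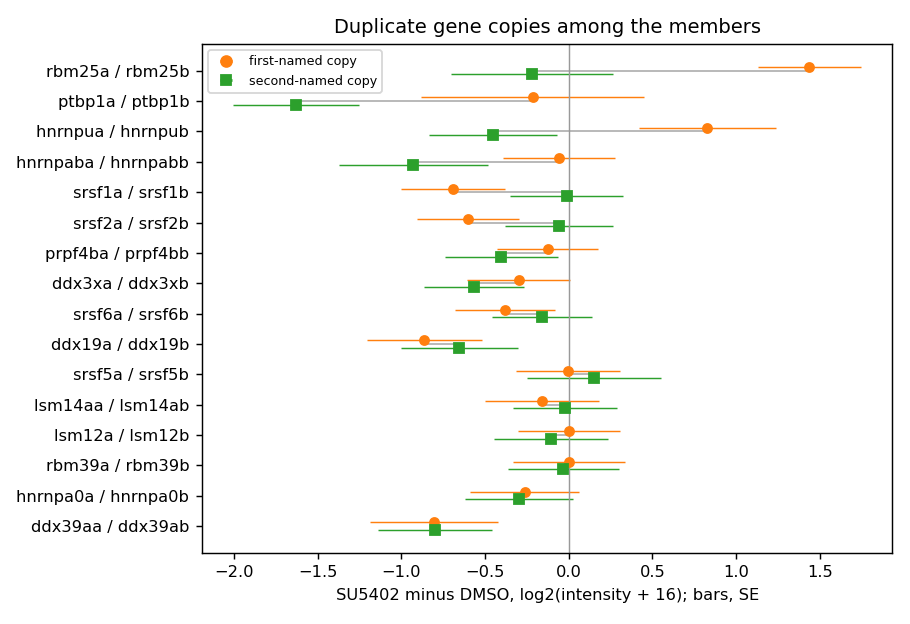
Difference between SU5402 and DMSO arrays (log2(intensity + 16) scale, bars are limma standard errors) for both copies of 16 duplicated genes, ordered by how far the copies differ. The rbm25, ptbp1 and hnrnpu pairs are furthest apart, though rbm25b is near background and ptbp1a has other probe sets at -0.91 and -1.02, and both ddx39a copies are at about -0.80.

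Of the 158 genes, 36 had further probe sets, 49 in all. Of these, 35 had the sign of the probe set used (16 of the 24 that lay on average above the Tag background), and their median was -0.09. At an unadjusted p under 0.05, where 963 of all 15502 probe sets were lower and 1045 higher, 6 of the 49 were lower and 2 higher. Among them cstf1 was at 0.74 (SE 0.30) by a second probe set and at -0.38 by the one used, so its direction is not settled. Of the probe sets used, 2 had names marking probes that can match several genes, those of ddx52 and hnrnpa0l.

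Other genes of the same pathways, listed apart from the symbol families, gave a weaker picture. Of 129 listed, 100 were measured, 71 were lower and the median was -0.25 (-0.07 without SU5402 replicate 2, -0.46 without SU5402 replicate 1). At an unadjusted p under 0.05, 6 were lower (6%, against 8.04% of all genes) and 2 higher, where 5.31% of all genes were higher. The lower ones were elavl1a, an mRNA stability factor, at -1.64 (SE 0.34), thoc7 of the mRNA export complex THO at -1.27, clns1a and gemin5, which serve Sm ring assembly, at -1.23 and -1.04, eif4a3, the helicase of the exon junction core, at -0.86, and the spliceosome gene isy1 at -0.78. The copy of elavl1a, elavl1b, was at 0.30 (SE 0.36) with groups that overlapped. The name of the gemin5 probe set marks probes that can match several genes. The RNA of eif4a3 stood at 1324 and 1239 in SU5402 against 2324 and 2348 in DMSO arrays, without overlap, like its partner magoh.

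The 2 higher genes encode splicing regulators known from neurons, and rbfox1 also from muscle. The gene rbfox1 had 1522 and 770 in SU5402 against 221 and 398 in DMSO arrays (1.81, SE 0.47), and nova2 had 1286 and 723 in SU5402 against 331 and 402 in DMSO arrays (1.36, SE 0.39). Both were higher without overlap, and both were higher in SU5402 replicate 1 than in replicate 2. The same held for the summed intensity of every list, the 158 members included, other than the red blood cell and fin fold sums. In the DMSO arrays both genes were higher in replicate 2. The neuron sum in DMSO was 9239 in replicate 1 and 7971 in replicate 2. Whether the rbfox1 and nova2 values came from the heart or the tissue around it was not tested. The gene rbfox2, a relative of rbfox1, was at 0.60 (SE 0.33), and rbfox1l lay below the Tag background on all 4 arrays. Of the CELF regulators, celf2 was at 0.53 (SE 0.33) and celf1 at -0.67 (SE 0.32), with groups apart for both in opposite directions.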

How the data were processed

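The authors deposited 1 linear intensity for each probe set of each of 4 arrays of total RNA (2 SU5402, 2 DMSO), with groups and replicate numbers taken from the sample titles. Neither the software nor the scaling is given in the sources used here. A trimmed mean of 499.8 on every array shows a common scale. All 4 columns belonged to these samples. Intensities were taken to log2(value + 16) and fitted with limma (version 3.58.1, R 4.3.3, lmFit and eBayes, treatment as the single term, two-sided). The fit covered all 15502 probe sets outside the 115 controls, with Benjamini-Hochberg adjustment. A run on simulated arrays with independent noise checked only that planted differences were recovered on average, not the p-values. Between 55.2% and 56.1% of probe sets per array lay above the Tag background. An array has no read depth, and 2 arrays a group limit the precision. Of these probe sets, 10795 had 1 symbol, 135 several and 4572 none in the platform annotation, and 10711 of the first kind matched a current gene through their Entrez identifier.

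The folds of ddx55, ddx51 and ddx19a, which were above background on neither SU5402 array, are given as bounds against the Tag background. Group counts and medians use the differences as measured, as does the value of myog. In each role group the up to 3 genes with the lowest p were named, with the largest rises and falls (6 of each at most) at an unadjusted p under 0.05 without overlap, 28 genes in all; others were named after their values were seen. The genes, lists and roles were chosen with earlier results of these data known. Alternatives were a replicate block, other scalings, pseudocounts of 1 and 64, filters, a floor, an intensity trend, averaging the probe sets of a gene and each array left out. No sequence was used here.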

Additional observations from a re-analysis of the deposited data

How the results depend on the processing

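The members' median (-0.38) ran from -0.39 to -0.33 over the 10 alternatives that kept all 4 arrays, and from -0.56 to -0.19 with 1 array left out, where 1 group is a single array assumed to vary like the other pair. Genes lower in sign stayed between 104 and 132 of 158. With 1 array left out, genes with SU5402 below DMSO on every array left ranged from 89 to 127 (56.3% to 80.4%). Of all genes, 36.1% to 46.5% did so, more than the 26.3% on 4 arrays. The count at an unadjusted p under 0.05 (15 lower, 1 higher) depended most on the setting. It was 8 lower with a pseudocount of 1 (5.06%, against 6.64% of all genes), 31 with a pseudocount of 64 (19.6% against 9.45%), and 4 to 41 with 1 array left out (2.53% to 25.9%, against 3.14% to 11.1%). The higher count was 2 after averaging the probe sets of each gene (1.27%, against 5.49% of all genes). The labels do not say that equal replicate numbers share a clutch. Replicate 1 minus 2 correlated at 0.28 between the groups over all probe sets, and with the replicate number as a block 25 members (15.8%, against 10.3% of all genes) were lower and 2 (1.27%, against 7.07%) higher at that p, with 0 probe sets past the adjusted threshold. Over all probe sets, 21 passed the adjusted threshold with values raised to the Tag background, 0 of them members, and 0 to 3 with 1 array left out. The other pathway genes had a median between -0.46 (without SU5402 replicate 1) and -0.066 (without SU5402 replicate 2) with 1 array left out. Of the 28 genes named by rule, 17 to 28 kept their direction and their side of that p under each alternative, and none changed sign in those run, while ddx54 and rbm46, below background throughout, were at 0 with the floor. At this signal over background 13 members had no measured level on any array.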
